A study of Saccharomyces cerevisiae with 5 samples.

Results

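The nuclear genes that encode the mitochondrial respiratory chain and ATP synthase of Saccharomyces cerevisiae were followed across 3 strain comparisons made under salt. The group was chosen by systematic reading-frame name and holds 40 of the 6388 genes probed on the array. It comprises 5 succinate dehydrogenase genes, 3 NADH dehydrogenases, 9 subunits of the cytochrome bc1 complex, 9 subunits of cytochrome c oxidase, 12 subunits of ATP synthase and both cytochromes c. All 40 have probes, in 3 repeat spots each.

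Respiratory enzymes of the inner mitochondrial membrane pass electrons from succinate and NADH through ubiquinone, the bc1 complex and cytochrome c to oxygen, and ATP synthase uses the resulting proton gradient to make ATP. Budding yeast has no proton-pumping complex I and instead uses single-polypeptide NADH dehydrogenases. Several of the subunits carry haem or iron-sulphur clusters, and many of the genes are under glucose repression and are activated by the Hap2/3/4/5 complex and, with oxygen and haem, by Hap1.

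Total RNA of a test strain and of a reference strain was amplified, labelled with Cy5 or Cy3 and hybridised together on oligonucleotide arrays. The cultures had all been exposed for 45 min to 0.5 mol/L NaCl, so no unsalted culture enters any value. The strain bdf1Δ, which lacks the bromodomain protein Bdf1, was set against the laboratory strain W303 on 1 array, on which bdf1Δ was labelled with Cy5. The strain bdf1Δ+HAL2 carries added HAL2, a salt-sensitive phosphatase that removes 3'-phosphoadenosine 5'-phosphate. It was compared with bdf1Δ on a dye-swapped pair of 2 arrays. The double mutant bdf1Δhda1Δ, which also lacks the histone deacetylase Hda1, was set against bdf1Δ in the same way. Every strain but W303 thus lacks BDF1. The sources used here do not give the HAL2 construct, the number of clones, the growth medium or the growth phase, nor whether the bdf1Δ RNA of the different comparisons came from 1 culture. The cultures are bulk samples, so fewer cells making a transcript and less transcript per cell cannot be told apart.

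Each dye-swapped pair repeats 1 pair of samples and counts as 1 replicate, so no comparison has biological replicates and no p-value was computed. Values are log2 ratios, test over reference strain, after background correction and loess normalization, relative to the typical gene of that array. For a pair the SD is that of its 2 arrays, and for the single array it is that of a gene's repeat spots, so it covers technical variation only. Array 1 of a pair has the test strain in Cy5 and array 2 has it in Cy3. A gene was called higher or lower when every array of the comparison showed a change of over 2-fold with the same sign. To count as measured, a gene needed, on every array, 2 or more of its 3 spots that the image software had found and that exceeded background in at least 1 channel.

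The arrays differed in how much they measured. The image software had found between 83 and 118 of the 120 spots of the 40 genes per array. On the array of bdf1Δ versus W303 only 60 of these spots exceeded background in the bdf1Δ channel, against 117 in the W303 channel, and on the other arrays each channel reached between 100 and 120. BDF1 exceeded background in no channel of a strain labelled as lacking it and in all 3 spots of W303. On the W303 array the ratio was −0.80 for BDF1 and −0.82 for HAL2. With each printing block normalized separately these were −1.01 and −0.46. Neither exceeded background in a bdf1Δ spot there, so missing BDF1 signal cannot be told apart from the low bdf1Δ signal. HAL2 stood at 3.83 and 3.62 in bdf1Δ+HAL2, and exceeded background in all 3 bdf1Δ spots of both arrays. HDA1 exceeded background in no spot of bdf1Δhda1Δ, but on array 1 of that pair it did so in no spot of bdf1Δ either. Of the 40 genes, 33 were measured in bdf1Δ versus W303, 38 in bdf1Δ+HAL2 versus bdf1Δ and 28 in bdf1Δhda1Δ versus bdf1Δ. Measured in all 3 comparisons were 26, and SDH2 and COX6 were measured in none.

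With HAL2 added to bdf1Δ, the respiratory genes lay slightly below the typical gene. The 1 gene called lower had a bdf1Δ signal above background only in this pair. SHH3 (YMR118C), a paralogue of the succinate dehydrogenase membrane anchor SDH3, was the 1 gene called lower of the 38 measured (1.03% of all 4266 measured genes were called lower). None was called higher (0.445% of all measured genes were). The median of the 38 genes was −0.22, with −0.23 on array 1 and −0.26 on array 2, against 0.00 over all measured genes. The mean ratio was below 0 in 34 of the 38, against 49.3% of all measured genes. It was below 0 on both arrays in 26 (34.1% of all measured genes), above 0 on both in 3, and of opposite sign on the arrays in 9 (32.1%). The mean lay further from 0 than the SD of the arrays in 26 of the 38, or 68.4%, against 58.3% of all measured genes, so for 12 genes the deviation was no larger than the spread between the arrays. By print-tip loess, which normalizes each printing block of the slide separately, 2 genes were called lower (1.1% of all measured genes) and none higher (0.492%). The mean was then below 0 in 35 (50% of all measured genes), below 0 on both arrays in 31 (38.6%) and of opposite sign in 4 (22.3%).

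Among the succinate dehydrogenase genes, whose product links the citric acid cycle to the chain, all 4 measured lay below 0 with a median of −0.43. SHH3 stood at −2.57 and −2.53, a mean of −2.55. Its net intensity was 1420 and 967.5 in bdf1Δ on the 2 arrays, and 232 and 33.3 in bdf1Δ+HAL2, where it exceeded background in 3 spots on array 1 and in none on array 2. The ratio of array 2 is thus set against an undetected level, and the mean depended on the background correction, at −3.57 with plain subtraction and −1.99 with none. The bdf1Δ channel of the other comparisons did not show that level: SHH3 exceeded background in 0 of 3 bdf1Δ spots on each bdf1Δhda1Δ array and on the W303 array, where the bdf1Δ channel was dim for most genes.

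SDH3, the membrane anchor that SHH3 resembles, stood at −0.56 and −0.37, a mean of −0.47 ± 0.13 (SD of 2 arrays). On array 1, where both genes exceeded background in both strains, the ratio of SDH3 exceeded that of SHH3 by 2.01 on the log2 scale. SDH2, the iron-sulphur subunit, was not measured, with −0.45 over 3 spots on array 1 and −0.89 from a single used spot on array 2.

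The 3 NADH dehydrogenases had unlike ratios. NDE2 (YDL085W), an external enzyme that faces the space between the membranes, stood at −1.21 and −0.95, a mean of −1.08 ± 0.19, and missed the call because array 2 fell short of 2-fold. By print-tip loess its mean was −1.03 and it was called lower. Its net intensity was 1042 and 809.7 in bdf1Δ+HAL2 against 2101 and 1910 in bdf1Δ. NDE1, the other external enzyme, stood at −0.08 and 0.32, and NDI1, the internal enzyme that oxidises matrix NADH, at 0.10 and 0.00. The ratio of NDE1 exceeded that of NDE2 by 1.20 ± 0.10.

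The bc1 complex passes electrons from ubiquinol to cytochrome c, and all 9 of its genes had a mean below 0, from −0.52 to −0.04 with a median of −0.36. None was called. The accessory subunit gene QCR10 (YHR001W-A) stood at −0.53 and −0.50, a mean of −0.52 ± 0.02. QCR8, another small subunit, stood at −0.53 and −0.42, and the core subunit gene COR1 at −0.48 and −0.34. Of the 9 genes, 8 lay below 0 on both arrays, the exception being QCR6 at −0.11 and 0.03.

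Cytochrome c oxidase, the terminal enzyme, lay close to the typical gene. Its 8 measured genes ran from −0.37 to 0.14 with a median of −0.09, and the median was 0.01 on array 1 and −0.14 on array 2. COX5A (YNL052W), the subunit 5 isoform of aerobic cells, stood at 0.08 and 0.20, and COX5B, the isoform of hypoxic cells, at 0.17 and −0.24. The ratio of COX5A exceeded that of COX5B by 0.17 ± 0.37, a difference smaller than its spread. COX12 stood at 0.10 and −0.17, also within the spread.

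All 12 ATP synthase genes had a mean below 0, within the narrow range of −0.33 to −0.12 and with a median of −0.20. The 5 genes of the catalytic F1 head and the 7 of the stalks and membrane sector had the same median of −0.20. None was called. The ratio was below 0 in 10 of the 12 on array 1 and in 11 on array 2.

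The electron carriers between the bc1 complex and the oxidase had ratios on opposite sides of 0. CYC1 (YJR048W), which encodes the main cytochrome c of aerobic cells, had the highest ratio of the 38 at 0.71 and 0.27, a mean of 0.49 ± 0.31, and was not called. Its net intensity was 5801 and 3487 in bdf1Δ+HAL2 against 2900 and 3314 in bdf1Δ. CYC7, the isoform associated with hypoxia, stood at −0.31 on both arrays. The ratio of CYC1 exceeded that of CYC7 by 0.80 ± 0.32. Among subunits that carry iron or haem 5 of 6 lay below 0 with a median of −0.28, against 29 of 32 and −0.20 among the others.

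**Figure D1:**
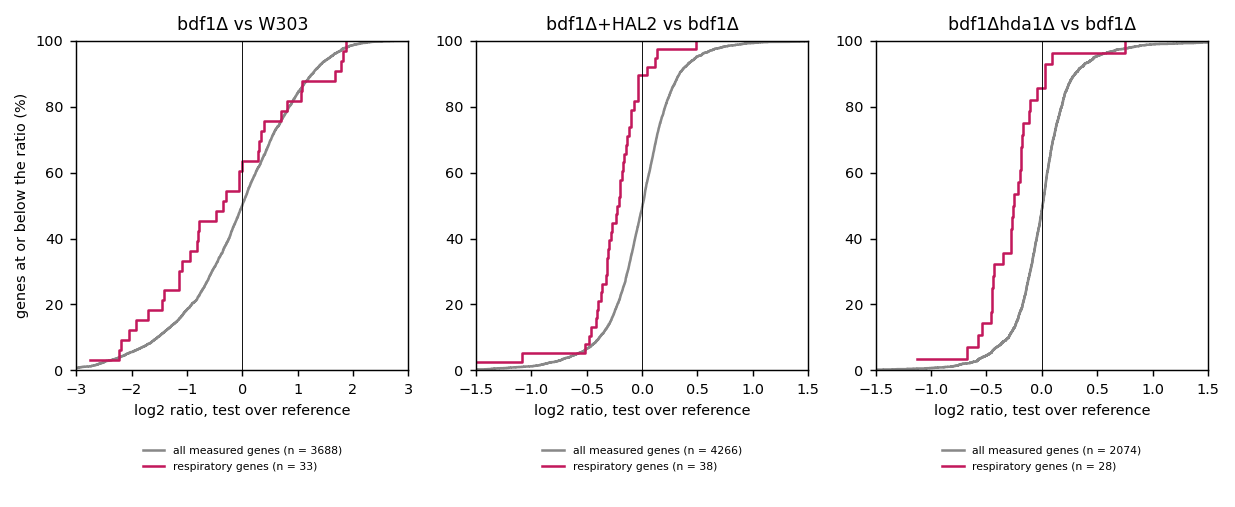
Percentage of genes at or below each log2 ratio (vertical axis, %) against the log2 ratio of test over reference strain (horizontal axis), for all measured genes (grey) and the respiratory genes (red) in each comparison. The red curves of bdf1Δ+HAL2 and bdf1Δhda1Δ cross 0 at 89.5% and 85.7%, against 49.3% and 48.5% for the grey curves, and the axes are cut so that SHH3 in bdf1Δ+HAL2 lies outside.

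Loss of HDA1 in bdf1Δ was accompanied by a similarly small displacement in the genes that could be measured, with SDH1 as the 1 gene called lower. SDH1 (YKL148C), the flavoprotein that oxidises succinate, was called lower of the 28 measured (0.627% of all 2074 measured genes were called lower), and none was called higher (1.06% of all measured genes were). The median of the 28 genes was −0.25, with −0.26 and −0.27 on the arrays, against 0.01 over all measured genes. The mean was below 0 in 24 of the 28 (48.5% of all measured genes) and below 0 on both arrays in 23 (36.5%), with opposite signs on the arrays in 3 (25.3%). It lay further from 0 than the SD of the arrays in 22 of the 28, or 78.6%, against 66.2% of all measured genes. By print-tip loess none was called in either direction, the mean was below 0 in 25 (49.8% of all measured genes), below 0 on both arrays in 22 (39.8%) and of opposite sign in 5 (21.4%). Of the 12 genes not measured, 9 had no spot found by the image software on either array.

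SDH1 stood at −1.13 and −1.12, a mean of −1.12 ± 0.00 or 2.18-fold lower, and ranked 12th from the lowest of the 2074 measured genes. Its net intensity was 634.2 and 694.8 in bdf1Δhda1Δ against 1303 and 2011 in bdf1Δ. By print-tip loess the mean was −1.07 and the gene was not called. SDH3 stood at −0.53 and −0.38, a mean of −0.45 ± 0.11, and the other 3 succinate dehydrogenase genes were not measured.

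The 8 measured bc1 genes all had a mean below 0, from −0.68 to −0.05 with a median of −0.44. By global loess QCR10 was again the lowest of them, at −0.67 and −0.68 with a mean of −0.68 ± 0.01. The core subunit genes COR1, at −0.51 and −0.65, and QCR2, at −0.46 and −0.62, followed. By print-tip loess COR1 (−0.69) and QCR2 (−0.64) lay below QCR10 (−0.60). In bdf1Δ+HAL2 the print-tip means were −0.44 for COR1 and −0.43 for QCR10. QCR8 stood at −0.10 and 0.01. RIP1, the Rieske iron-sulphur protein, was not measured, with −0.47 from a single used spot and −0.52 over 3.

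Of the 10 measured ATP synthase genes, 9 had a mean below 0, and the median was −0.20. ATP17, a membrane-sector subunit, was the lowest at −0.65 and −0.25, a mean of −0.45 ± 0.28. ATP1 (YBL099W), the alpha subunit of the F1 head, stood at 0.01 and 0.05, a mean of 0.03 ± 0.03. The 5 genes of the F1 head had a median of −0.17 and the 5 measured genes of the stalks and membrane sector one of −0.26.

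Only 4 of the 9 cytochrome c oxidase genes were measured, with a median of −0.23 and 3 of them below 0. By print-tip loess their median was −0.07. COX13, an accessory subunit, stood at −0.10 and 0.17, and COX5B at −0.33 and −0.24. NDE1 stood at 0.22 and −0.03 and NDE2 at −0.06 and −0.31, so that the ratio of NDE1 exceeded that of NDE2 by 0.28 ± 0.00. That is a smaller gap than in bdf1Δ+HAL2, but the difference between the comparisons was not tested.

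CYC1 again had the highest ratio, at 0.68 and 0.83 with a mean of 0.75 ± 0.11, which stayed below the call. By print-tip loess its mean was 0.54. Its net intensity was 6250 and 6801 in bdf1Δhda1Δ against 3390 and 4344 in bdf1Δ. CYC7 stood at −0.04 and −0.16. The ratio of CYC1 exceeded that of CYC7 by 0.85 ± 0.19, and by 0.62 after print-tip loess. Iron- or haem-bearing subunits had a median of −0.27 with 3 of 4 below 0, against −0.25 and 21 of 24 among the others.

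Both pairs use bdf1Δ as reference, so their values are given side by side only. Of the 28 genes measured in both, 24 had a mean below 0 in both pairs and 2 a mean above 0 in both. COX13 and ATP1 had a mean below 0 in bdf1Δ+HAL2 and above 0 in bdf1Δhda1Δ. The mean of COX13 was smaller than the SD of the arrays in both pairs. These counts were not made over all genes. The called genes differed: SDH1 stood at −0.40 in bdf1Δ+HAL2 and was not called there, and SHH3 was not measured in bdf1Δhda1Δ.

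The array of bdf1Δ versus W303 gave large ratios in both directions, and few of them were the same under a second normalization. Of the 33 measured genes, 11 were called lower (18.4% of all 3688 measured genes were) and 6 higher (15.9%). By print-tip loess the counts were 4 lower (6.18% of all measured genes) and 3 higher (5.94%). Both normalizations called CYC1 and ATP7 lower and QCR7 and COX9 higher. The median of the 33 genes was −0.36 by global loess and 0.03 by print-tip loess, so no direction can be given for the group. The ratio was below 0 in 21 of the 33 by global loess (50.1% of all measured genes) and in 12 by print-tip loess (50.5%).

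CYC1 was the lowest at −2.75 ± 0.05 (SD of repeat spots) by global loess and −1.16 by print-tip loess. Its net intensity was 76.3 in bdf1Δ, which was not well above background, against 2730 in W303. The bound on the fold by which W303 was higher was 2.23. This bound sets the W303 level against the dimmest signal seen above background or the dim gene's own, whichever is higher. It is the smaller of the folds after both normalizations, here the print-tip ratio itself, and on the single array it has no repeat. It leaves out the spread of the spots, and scale normalization gave CYC1 a smaller ratio, at −0.91. CYC7 stood at 0.30 ± 0.64 by global loess and 0.53 by print-tip loess.

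ATP7 (YKL016C), the d subunit of the peripheral stalk, stood at −1.41 ± 0.16 by global loess and −1.09 by print-tip loess, with bdf1Δ well above background. QCR7, a bc1 subunit, stood at 1.06 ± 0.77 and 1.49, and COX9, a small oxidase subunit, at 1.08 ± 0.16 and 1.17. QCR7 varied widely among its repeat spots. In the authors' deposited ratio, which is not centred on this array, QCR7 had a log2 value of −1.09 beside a median of −2.37 over all genes.

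The remaining calls held under 1 normalization only. ATP18 stood at −2.23 by global loess and 0.04 by print-tip loess, COX12 at −2.19 and 0.03, and ATP16 at −1.71 and 0.06. SDH4 and ATP20 also stood near −1.1 by global loess, at −1.14 and −1.09, and at 0.03 each by print-tip loess. QCR6 was called lower at −1.45 by global loess and lay at 0.85 by print-tip loess.

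ATP3 stood at −2.06 and −0.06, RIP1 at −1.91 and −0.07, and ATP2 at −1.14 and −0.49. Of the 11 genes called lower by global loess, 9 failed to stand well above background in bdf1Δ, and a bound of 1-fold or more could be given for 4 of them. Besides CYC1 these were ATP2 at 1.41, RIP1 at 1.05 and ATP3 at 1.04. The print-tip ratios of RIP1 and ATP3 were smaller than their SDs over repeat spots, of 0.20 and 0.21.

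Among the genes called higher by global loess, QCR9 stood at 1.87 ± 0.28, COX13 at 1.82 ± 0.12, QCR2 at 1.78 ± 0.03 and ATP4 at 1.68 ± 0.11. By print-tip loess these were 0.75, 0.63, 0.20 and 0.16. SDH3, at −0.80 and −1.08, and QCR8, at −0.77 and −1.35, were called lower by print-tip loess alone. COX7, at 0.81 and 1.12, was called higher by print-tip loess alone. COX5A stood at 0.28 ± 0.03 by global loess and 0.03 by print-tip loess, and COX5B at 0.69 ± 0.24 and 0.99.

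Ratios on this array varied with position on the slide. All 3 spots of a gene lie in 1 printing block, and the 33 genes lie in 24 of the 48 blocks. The median ratio of all genes in those 24 blocks ran from −0.92 to 1.44. All 11 genes called lower by global loess lie in blocks with a median below 0, and 5 of the 6 called higher in blocks with a median above 0. The share of all measured genes in such blocks was not counted. ATP7, called lower, and QCR7, called higher, lie in the same block, with a median of only −0.04. Because the spots of a gene share a block, the SD of repeat spots leaves out the variation with position. Differences between blocks made up 35.8% of the variance on this array, against 3.18% to 10.7% on the other 4. The part of position and of low bdf1Δ signal in each ratio was not tested.

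By complex, 5 of the 7 measured oxidase genes lay above 0 by global loess and all 7 by print-tip loess. The medians were 0.69 and 0.63. The 5 above 0 by global loess are the ones well above background in bdf1Δ, and all genes with both channels above background had a median of 0.42. By print-tip loess COX5A and COX12 stood at only 0.03 each. The bc1 genes were mixed, with 5 of 9 above 0 and a median of 0.34. The ATP synthase genes had 11 of 12 below 0 by global loess, with a median of −1.02, and 6 of 12 by print-tip loess, with a median of −0.02. No NADH dehydrogenase was measured. The 7 genes not measured had no spot found by the image software, and 6 of them exceeded background in W303 in all 3 spots. Where both channels of a spot had to exceed background, 20 genes were left, with a median of 0.29 beside 0.42 over all genes so measured, and 12 of the 20 lay below that all-gene median.

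Lists of genes around the respiratory chain were counted in the same way. Of all measured genes, 1.03% were called lower and 0.445% higher in bdf1Δ+HAL2, and 0.627% and 1.06% in bdf1Δhda1Δ. Of the 15 other subunits, inhibitors and electron donors listed, 13 were measured in bdf1Δ+HAL2, with a median of −0.24. STF2, associated with the regulation of ATP synthase, was the 1 gene called lower among them, at −1.22 and −1.35, and none was called higher. In bdf1Δhda1Δ 8 were measured, with a median of −0.01 and none called. Of the 65 assembly and expression factors, 41 were measured in bdf1Δ+HAL2, with a median of −0.09 and none called, and 10 in bdf1Δhda1Δ, with −0.06 and none called.

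Of the 16 transcriptional and mRNA regulators, 13 were measured in bdf1Δ+HAL2, with a median of 0.07 and 4 below 0, and none was called. In bdf1Δhda1Δ 5 were measured, with a median of 0.22 and 1 below 0, and TIS11, which promotes the decay of mRNAs of iron-using proteins when iron is scarce, was called higher at 2.17 and 1.98. On array 1 it exceeded background in 0 of 3 bdf1Δ spots, so that ratio is set against an undetected reference. HAP4, the activating subunit of the Hap2/3/4/5 complex, was picked out after its values were seen and was the lowest of its list in both pairs. It stood at −0.78 and −0.57 in bdf1Δ+HAL2 and at −0.34 and −0.47 in bdf1Δhda1Δ, below 0 on all 4 arrays and not called.

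On the bdf1Δ versus W303 array the same lists gave calls that again depended on the normalization. Among the other subunits TIM11, an ATP synthase subunit, was called higher at 1.74 and stood at 0.06 by print-tip loess, STF1 stood at 1.47 and 0.99, and RCF1, a respiratory supercomplex factor, was called lower at −1.34 and stood at −0.25. Of the 40 measured assembly factors 8 were called higher and 8 lower by global loess, where 15.9% and 18.4% of all measured genes were. By print-tip loess 4 and 2 were called, beside 5.94% and 6.18% of all measured genes. Of the 10 measured regulators MOT3 was called higher at 1.31 and RTG2 lower at −2.27 by global loess, and neither by print-tip loess. That is 1 call each way, beside 15.9% and 18.4% of all measured genes. RCF1 and RTG2 exceeded background in 0 of 3 bdf1Δ spots, so their ratios are set against an undetected bdf1Δ level. The 8 mitochondrially encoded genes on the array were measured in no comparison.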

How the data were processed

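The deposited scanner files hold, per the file headers, spot intensity and local background intensity for both channels, with a red-over-green ratio. The authors' deposited value table holds a linear ratio of test over reference strain per probe, used as an alternative only. Its direction was checked against the scanner values. Its median was 0.19 for bdf1Δ versus W303 and between 0.99 and 1.04 on the arrays of the pairs, and how it was centred is unknown. The image software is not given in the sources used here. Spots with a positive flag were read as found, those with a negative flag as not found.

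Spot medians were corrected with normexp (offset 50) and normalized by global loess, with control spots and spots not found at weight 0 (limma 3.58.1, R 4.3.3). The sign was turned where the test strain was in Cy3. A channel counted as above background when it exceeded it by 2 background SDs. A strain whose channel passed in fewer than 2 spots of a gene, on every array, is described as not well above background. A gene's value was the mean of its used spots. The 2-fold rule on each array is the one the labels state. Counts and plots were made with matplotlib 3.10.9, pandas 2.3.3 and NumPy 2.4.6 in Python 3.11.15, and the processing was tested on simulated data. Precision is limited by the number of arrays.

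Of 6388 gene probes, 5849 matched the R64 gene table, as did 40 of 40 members. No probe sequences are given, so cross-hybridisation between SDH3 and SHH3, NDE1 and NDE2, COX5A and COX5B, or CYC1 and CYC7 could not be examined. The members, the other lists and the choice of tests were made with earlier results of these data known. Named with per-array values are the 6 highest and 6 lowest members of each comparison, every called member and these paralogue pairs, with up to 5 called genes of each other list. SDH2, RIP1 and QCR6 in the pairs, SDH1 in bdf1Δ+HAL2, COX7, and QCR8 on the single array were named outside this rule.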

Additional observations from a re-analysis of the deposited data

Results flagged for a closer look

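ATP1, the alpha subunit of the F1 head, was below 0 on both arrays of bdf1Δ+HAL2 versus bdf1Δ (−0.14 and −0.27, mean −0.20) and above 0 on both arrays of bdf1Δhda1Δ versus bdf1Δ (0.01 and 0.05, mean 0.029). It was the 1 gene of the 28 measured in both pairs that lay on opposite sides of 0 in the pairs on all 4 arrays. The 28 genes were searched for this pattern, and its share over all genes was not counted. The difference was not tested, neither value was called, and by print-tip loess the mean in bdf1Δhda1Δ was −0.0024.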

How the results depend on the processing

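In the dye-swapped pairs the group's median stayed below 0 under each alternative that was run. For bdf1Δ+HAL2 it was −0.17 by print-tip loess, −0.24 with median centring, −0.25 with scale normalization and −0.23 in the authors' deposited ratios, and −0.26 to −0.23 with 1 array left out. For bdf1Δhda1Δ it was −0.22 without background subtraction, −0.28 with plain subtraction, −0.18 by print-tip loess, −0.38 with scale normalization, −0.27 with all spots and −0.23 in the authors' deposited ratios, and −0.27 to −0.26 with 1 array left out.

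SHH3 kept its call in the 10 alternatives that gave it a value, from −3.57 to −1.99. Where both channels had to exceed background it was not measured, which left 0 genes called lower. NDE2 was the second gene called lower (2 in all) with plain subtraction, print-tip loess, scale normalization and the authors' deposited ratios, and the count was 1 to 2 with 1 array left out. SDH1 in bdf1Δhda1Δ was not called without background subtraction or by print-tip loess, which left 0 genes called lower. Scale normalization called 2 lower, SDH1 and QCR10, and 1 higher, CYC1 at 1.12. It also raised the genes called higher over all measured genes from 19 to 32 in bdf1Δ+HAL2 and from 22 to 45 in bdf1Δhda1Δ, and those called lower from 13 to 36 in the latter. With 1 array left out, 32 to 36 genes were called higher in bdf1Δ+HAL2.

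The bdf1Δ versus W303 values depended on most choices. The number of respiratory genes called higher went from 6 to 3 by print-tip loess, 0 with scale normalization or in the authors' deposited ratios, 10 with all spots and 2 with the block median subtracted, an alternative chosen after seeing the data. The number called lower went from 11 to 4, 0, 25 (authors' deposited ratios), 2 (both channels above background) and 6 (block median subtracted). The median was −0.56 with plain subtraction, 0.034 by print-tip loess, −0.14 with median centring, −0.12 with scale normalization, −0.035 with all spots (0.55 over all genes), 0.29 with both channels above background (0.42 over all genes), −3.22 in the authors' deposited ratios (−2.37 over all genes) and −0.11 with the block median subtracted. The count below 0 was 12 by print-tip loess and 9 of 20 with both channels above background. Over all genes, 219, 2, 1564, 31 and 232 were called higher by print-tip loess, scale normalization, all spots, the authors' deposited ratios and block subtraction, against 587. Called lower were 228, 28, 280 and 2873 by print-tip loess, scale normalization, both channels above background and the authors' deposited ratios, against 679. Signs of called genes turned by print-tip loess for ATP18 (0.037), COX12 (0.033), ATP16 (0.058), QCR6 (0.85), SDH4 (0.027) and ATP20 (0.028), and in the authors' deposited ratios for QCR7 (−1.09). The uncalled COX5A (−1.42), CYC7 (−1.71) and COX5B (−0.67) turned in those ratios too, and COX5A (−0.10) and CYC7 (−0.055) with the block median subtracted. In those uncentred ratios QCR7, COX5A, CYC7 and COX5B all lay above the all-gene median of −2.37. In the pairs, signs turned under at least 1 alternative for the uncalled COX5B, COX12, NDI1 and NDE1 in bdf1Δ+HAL2 and QCR8, ATP1, COX13 and NDE1 in bdf1Δhda1Δ. The cause was not tested. The authors' ratios are uncentred on the bdf1Δ versus W303 array only. No paired analysis was possible because the array numbers mark the dye orientation of repeats of 1 sample pair. Low bdf1Δ signal on the single array limits what can be said of the lower genes.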
